A study of Mus musculus with 9 samples.

Results

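Medullary thymic epithelial cells (mTEC) of mice heterozygous or homozygous for a Foxn1 transgene were compared over all genes. Of the 20 RNA-seq libraries of the study, the 4 mTEC libraries were compared, 2 labelled heterozygous and 2 labelled homozygous for the transgene. All 4 came from nude mice, which lack functional Foxn1, carrying a bacterial artificial chromosome (BAC) with Foxn1, written as wt* in the study's design, where the protein bears a FLAG tag. Heterozygous mice are wt*/-::nu/nu and homozygous mice wt*/wt*::nu/nu. The age, sex and number of mice behind a library are not stated. Cells were sorted as CD45-EpCAM+MHCII+Ly51-UEA1+, and polyadenylated RNA was sequenced. The 6 cortical (cTEC) libraries of the same 2 genotypes, sorted as Ly51+UEA1-, were filtered, scaled and fitted together with them. They share the estimate of the spread behind every mTEC call. Beyond that they serve to test whether the difference by dose is unlike that of mTEC. No mTEC with an unaltered Foxn1 locus are in the table, so the data give the difference between 2 doses and not the distance of either from the wild type.

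Foxn1 is the forkhead transcription factor that thymic epithelium needs to develop and to support thymocytes. Medullary cells display genes of many other tissues to developing T cells, a process in which Aire and Fezf2 have central parts, so that T cells recognising the body's own proteins are removed or become regulatory. Mature mTEC carry high levels of MHC class II and costimulatory molecules, and some go on to resemble cells of skin, gut, lung, muscle or the tuft lineage.

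In mTEC the total Foxn1 count ran against the labels. Foxn1 had 488 and 502 CPM (counts scaled to a common library total and not corrected for gene length) in the libraries labelled heterozygous, and 307 and 329 CPM in those labelled homozygous. The groups did not overlap, and the libraries with the higher level are those whose label states the lower dose. The log2 fold change, heterozygous minus homozygous, was 0.66 with a standard error (SE) of 0.08 and an adjusted p of 1.68e-05 (edgeR's quasi-likelihood test, Benjamini-Hochberg adjustment over all genes). In cTEC the means were 1166 CPM under the heterozygous and 1364 CPM under the homozygous label. Counts per gene symbol do not separate transcripts of the transgene from those of the nude allele. Every direction below therefore rests on the labels: "higher" and "lower" mean higher or lower in the libraries labelled heterozygous, and every change is in the log2 fold change of that direction.

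The libraries held 21188378 to 21601949 counts. Counts of the libraries labelled homozygous covered more genes, with a mean of 25410.5 genes counted against 23779 in those labelled heterozygous. Of 28067 genes counted in any of the 4 libraries, 950 had counts in both libraries labelled homozygous and in neither labelled heterozygous, against 211 the other way round. Libraries of a group differed beyond sampling noise, with a chi-square per gene of 3.65 in the heterozygous and 8.32 in the homozygous pair. They were treated as separate samples as labelled; separate preparations of one sample would exceed counting noise too. Nothing in the labels says that they came from separate mice. The p-values measure the spread between libraries, estimated over the mTEC and cTEC groups together and not from the mTEC pairs alone. The sort markers were present in all 4 libraries, with Epcam at 722, 715, 883 and 835 CPM and Fut1, which encodes a fucosyltransferase, at 116, 128, 113 and 114 CPM, in the order heterozygous 1 and 2, homozygous 1 and 2. That order is kept below. Of 10 epithelial sort marker genes 7 were lower and 0 higher (median log2 -0.46).

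Markers of cells that the gate should leave out were counted in all 4 libraries, and those of macrophages, dendritic cells and thymocytes moved with the labels. Of 15 tested genes of macrophages and dendritic cells 12 were lower and 0 higher, and their summed level was 125, 122, 689 and 583 CPM. Most of that sum was Lyz2 (lysozyme), at 87.4 and 87.6 against 552 and 462 CPM, a log2 change of -2.51, while Itgam (integrin CD11b) stood at 1.79, 2.27, 19.3 and 17.5 CPM. Of 18 thymocyte and T cell genes 15 were lower and 1 higher, with sums of 88.5, 89.2, 151 and 129 CPM; Ptprc, which encodes CD45, had 6.92 and 6.94 against 20.6 and 18.8 CPM, a call lost in the fit of all 20 libraries. The thymocyte count was 9 without either heterozygous library, 7 without homozygous library 1 and 0 in a fit of all 20 libraries. Of 10 B cell genes 6 were lower and 2 higher, with sums of 137, 120, 113 and 95.5 CPM, and the immunoglobulin light chain Igkc ran against the rest at 104 and 93.4 against 29.2 and 22.2 CPM; without heterozygous library 2, homozygous library 1 or homozygous library 2, 1 was higher. Heterozygous library 1 stood apart for endothelial and mesenchymal genes: Cdh5 had 9.65 CPM there and 2.08 to 2.36 CPM in the other libraries, Pecam1 11.3 against 2.93 to 8.52, and the collagen Col3a1 27.0 against 5.71 to 7.13. Of 11 endothelial genes 2 were higher and 3 lower, but 7 were higher without heterozygous library 2 and 0 without any one of the others, and of 13 fibroblast genes 3 were higher and 4 lower, with 1 higher without any library other than heterozygous 2. The erythroid list had 3 of 8 genes lower. Over all tested genes 28.9% were higher and 30.8% lower. The lower shares of the endothelial (27.3%), fibroblast (30.8%) and erythroid (37.5%) lists were near that. Without heterozygous library 1 the log2 change of Cdh5 went from 1.38 to -0.12 and that of Col3a1 from 1.29 to -0.23. The part of such cells in the results below was not tested. In bulk samples, fewer cells of a type and less RNA per cell cannot be told apart.

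Across the genome, 59.7% of tested genes were called and the large changes were mostly losses. Of 19222 genes tested, 5550 (28.9%) were higher and 5922 (30.8%) lower in the libraries labelled heterozygous at an adjusted p of 0.05. Among changes of at least 2-fold the balance was uneven, with 687 genes higher (3.57%) and 3561 lower (18.5%). The median log2 change over all tested genes was 0.01. With DESeq2's size factors in place of the trimmed mean (TMM) this median shifted to -0.12 and the counts to 3911 higher and 7082 lower, so that lower calls rose from 51.6% to 64.4% of all calls. Directions of genes changed by less than about that shift depend on the scaling.

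**Figure D1:**
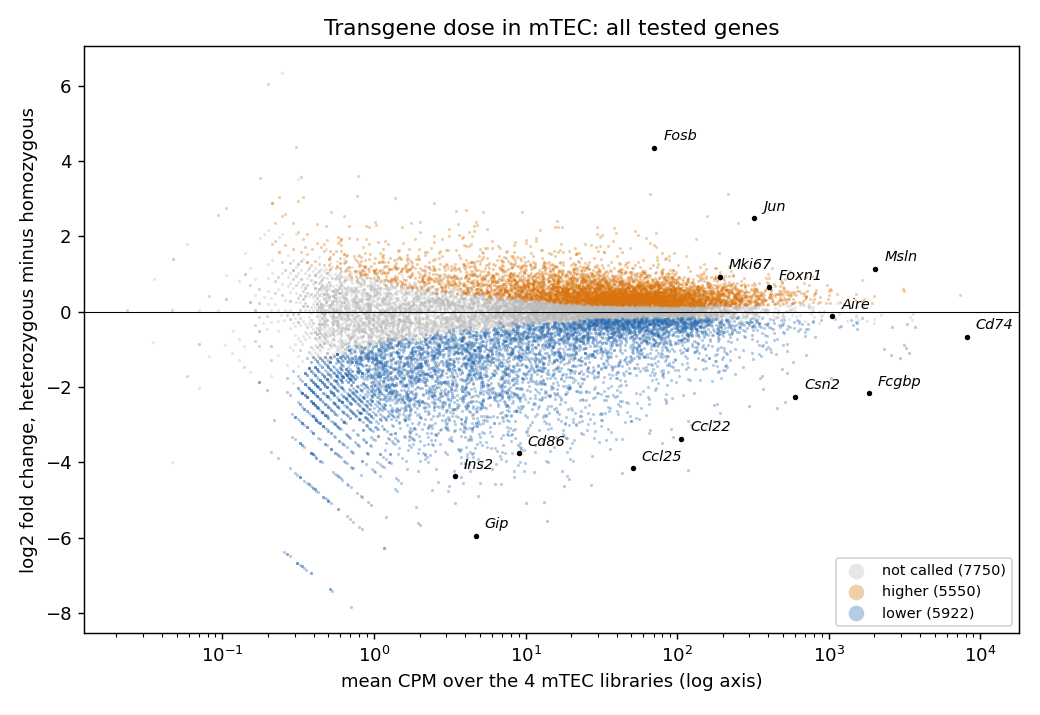
Each point is a tested gene, with its mean CPM over the 4 mTEC libraries (log axis) against the log2 fold change, heterozygous minus homozygous; orange genes were higher, blue lower and grey not called. Large losses occur at all levels but are less frequent above 10 CPM, Aire lies near 0 and Fosb and Jun stand out above. The parallel streaks at low CPM are genes with few or no counts under the heterozygous label, whose fitted change depends on the prior count.

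The direction changed with the level of the gene. Below a mean of 1 CPM, 5.07% of 2483 genes were higher and 39.1% lower. From 1 to 10 CPM the shares were 15.1% and 43.8% of 5435 genes. Above 10 CPM the shares were 39.7% higher and 22.8% lower of 8922 genes from 10 to 100 CPM, and 44.6% and 22.8% of 2382 genes at 100 CPM or more. With DESeq2's size factors the shares above 10 CPM were about level, at 27.6% higher and 29.9% lower from 10 to 100 CPM and 30.4% and 32.5% from 100 CPM, so an excess of gains among abundant genes depends on the scaling. Below 10 CPM lower calls stayed the more frequent with those factors, at 41.9% against 3.79% below 1 CPM and 47.8% against 11.6% from 1 to 10 CPM. Large changes were few among abundant genes: 94 genes at 100 CPM or more were at least 2-fold lower and 22 at least 2-fold higher.

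**Figure D2:**
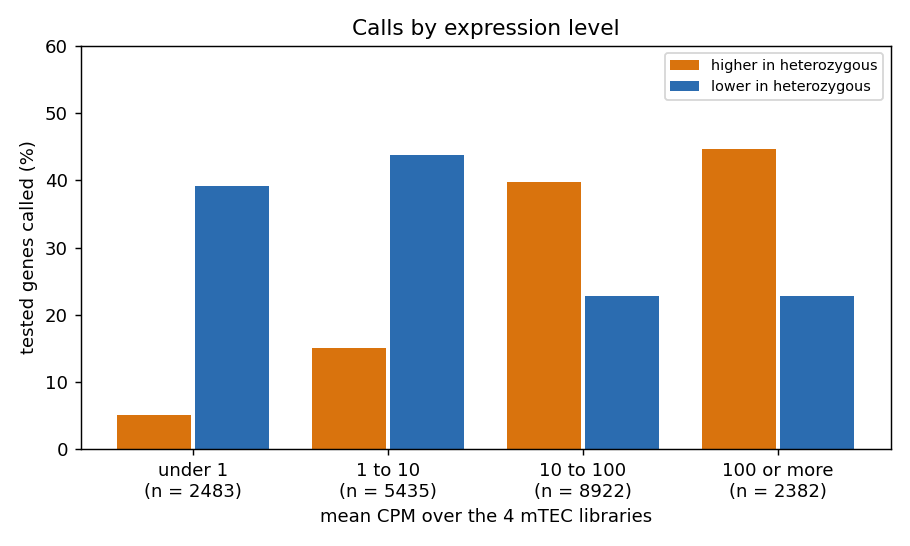
Bars give the percentage of tested genes called higher (orange) or lower (blue) in the libraries labelled heterozygous, in 4 bands of mean CPM, with n the number of genes. Lower calls exceed higher calls below 10 CPM; above it higher calls lead under this scaling (TMM) but not with DESeq2's size factors.

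Genes tied to Foxn1 function were lower although Foxn1 itself was higher. Ccl25, the chemokine that draws thymocyte precursors into the thymus, had 5.13 and 5.47 CPM under the heterozygous and 110 and 82.5 CPM under the homozygous label, a 17.9-fold difference (log2 -4.16, SE 0.18, adjusted p of 5.51e-09 by edgeR). The groups were far apart. Prss16, the thymus-specific serine protease, had 35.2, 34.0, 174 and 98.8 CPM (log2 -1.96). Cd83, which stabilises MHC class II at the surface, had 4.66, 5.24, 26.8 and 20.5 CPM (log2 -2.23). In these 3 genes the homozygous libraries differed from each other more than the heterozygous ones did, with library 1 the higher.

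Psmb11, the catalytic subunit of the cortical thymoproteasome, had 3.63, 5.05, 29.5 and 13.1 CPM (log2 -2.27). Homozygous library 1 carried the higher level of the pair by far, and without it the log2 change was -1.57. Kitl, the stem cell factor, had 10.7, 9.44, 21.2 and 18.6 CPM (log2 -0.96). Smaller losses were seen in Ctsl, the protease cathepsin L (log2 -0.54), and Dll4, the Notch ligand that commits precursors to the T lineage (log2 -0.49). Cxcl12, a second precursor attractant, had 44.4, 49.7, 79.8 and 51.8 CPM (log2 -0.46, adjusted p of 0.0227 by edgeR), and its call was lost without heterozygous library 1 (log2 -0.38) or homozygous library 1 (log2 -0.11). In the fit of all 20 libraries Dll4, Ctsl and Cxcl12 missed the threshold.

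The same genes responded more in cTEC, where they are abundant. Ccl25 averaged 6.04 CPM in heterozygous and 1044 CPM in homozygous cTEC, a log2 change of -7.57, and the mTEC change was smaller in size by 3.41 (SE 0.25). The corresponding differences, mTEC minus cTEC, were 2.95 for Prss16, 1.90 for Cd83, 1.82 for Dll4, 1.72 for Ctsl, 1.32 for Cxcl12 and 1.109 for Psmb11, all past the threshold of the interaction test. For Kitl it was 0.35 (adjusted p of 0.0659, edgeR), with a 95% interval of its mTEC change from -1.22 to -0.69. Foxn1 itself differed by 1.02, the mTEC change being positive and the cTEC change -0.36. Enpep, which encodes the cortical sort marker Ly51, was also lower in mTEC, at 21.7, 21.5, 34.96 and 29.6 CPM (log2 -0.56, a call lost in the fit of all 20 libraries); whether cortical cells in the medullary gate took part was not tested.

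**Figure D3:**
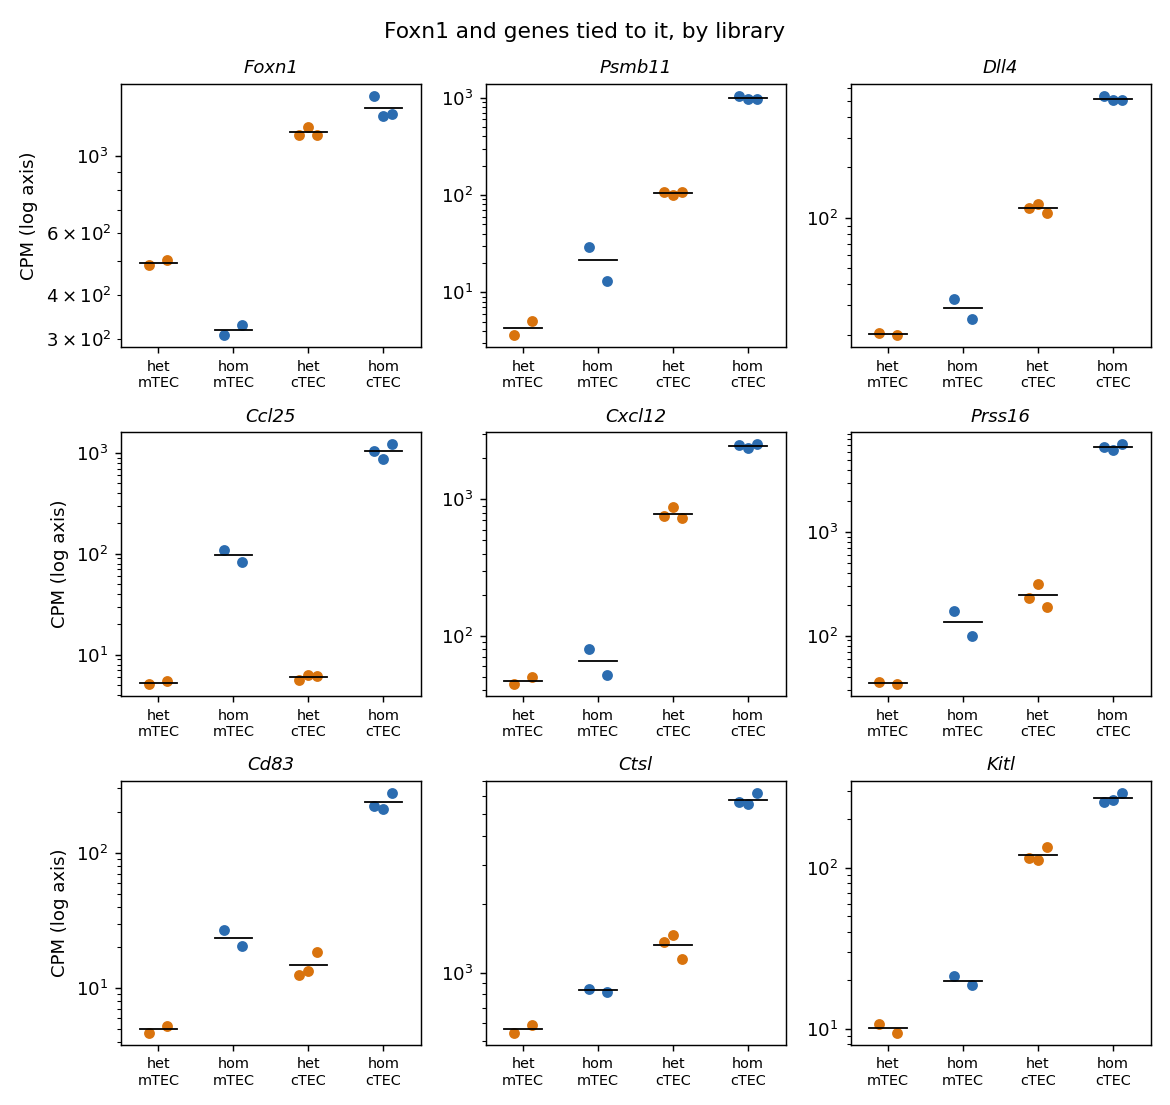
Each panel gives the CPM (log axis) of a gene in every transgenic library, with orange for the heterozygous and blue for the homozygous label and a bar at the group mean. In mTEC Foxn1 sits higher under the heterozygous label while the other 8 genes sit lower, and in cTEC all 9 means are lower under that label.

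Promoters of the reference genes are shown because the core motif reported for FOXN1, GACGC, can be looked for in them. RefSeq windows (GRCm38.p6, 250 bases before to 50 after the start) were matched for 7 of the 9 genes, in 8 windows. The 4 windows that hold GACGC or its reverse complement GCGTC are printed 5′ to 3′ with the matches in capitals.
Ccl25, chr8:4324960-4325259, plus strand: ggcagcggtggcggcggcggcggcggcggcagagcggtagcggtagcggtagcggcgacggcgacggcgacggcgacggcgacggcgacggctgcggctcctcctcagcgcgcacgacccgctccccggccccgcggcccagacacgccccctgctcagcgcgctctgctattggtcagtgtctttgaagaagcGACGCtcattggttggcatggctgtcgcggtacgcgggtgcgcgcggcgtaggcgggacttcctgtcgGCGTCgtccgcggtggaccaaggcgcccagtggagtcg
Psmb11, chr14:54625060-54625359, plus strand: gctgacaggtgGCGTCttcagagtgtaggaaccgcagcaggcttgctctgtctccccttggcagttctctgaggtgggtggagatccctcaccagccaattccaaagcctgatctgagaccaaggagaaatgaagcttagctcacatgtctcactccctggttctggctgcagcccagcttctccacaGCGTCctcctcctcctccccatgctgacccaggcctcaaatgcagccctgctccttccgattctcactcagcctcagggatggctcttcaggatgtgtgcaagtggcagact
Cxcl12, chr6:117168285-117168584, plus strand: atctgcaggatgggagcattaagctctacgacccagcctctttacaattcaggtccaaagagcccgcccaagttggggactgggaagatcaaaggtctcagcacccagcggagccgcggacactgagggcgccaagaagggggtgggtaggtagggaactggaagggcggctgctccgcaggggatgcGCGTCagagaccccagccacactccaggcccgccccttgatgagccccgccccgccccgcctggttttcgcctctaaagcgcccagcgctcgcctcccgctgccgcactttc
Kitl, chr10:100015571-100015870, plus strand: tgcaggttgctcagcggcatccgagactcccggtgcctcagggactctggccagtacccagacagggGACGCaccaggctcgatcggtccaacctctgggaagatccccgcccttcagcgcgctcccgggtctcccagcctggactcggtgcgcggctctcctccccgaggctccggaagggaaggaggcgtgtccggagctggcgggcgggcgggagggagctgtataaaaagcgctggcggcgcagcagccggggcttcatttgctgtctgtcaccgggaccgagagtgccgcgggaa

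Ccl25 and Psmb11 each held 2 matches and the other windows 1. The windows of Foxn1, Dll4 and Ctsl and a second window of Ccl25 held none. The motif is short and rich in CpG: 27.2% of all 32851 windows held it on either strand, at a median GC content of 52.7%. Among tested genes with a window (13320 of 19222) it was held by 45.4% of windows of higher genes, 42.3% of genes not called and 28.4% of lower genes. The median GC content of these windows was 61.3% for higher and 55.3% for lower genes. Genes at least 2-fold lower had the motif in 20.0% of windows, at a GC content of 52.3%. A match is a run of letters and not a binding site, and matches of the 2 orientations can share bases.

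Neighbours of Foxn1 on chromosome 11, which a large transgene could carry, showed no common shift. Of 8 genes 1 was higher, the spindle gene Spag5 (log2 0.70), and 1 lower, Unc119 (log2 -0.33). The call of Unc119 was lost without heterozygous library 1 or homozygous library 1, and both calls in the fit of all 20 libraries. The other 6 did not pass, with log2 changes between -0.38 (Slc13a2) and 0.45 (Aldoc).

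Aire was at the same order of level at both doses. It had 999 and 1019 CPM under the heterozygous and 1029 and 1188 CPM under the homozygous label, a log2 change of -0.11 with a 95% interval from -0.38 to 0.15 (adjusted p of 0.446, edgeR). The groups did not overlap, but the gap was smaller than the spread of the homozygous pair. Fezf2, the factor for a further set of tissue antigens, had 216, 222, 305 and 295 CPM (log2 -0.43), a call lost in the fit of all 20 libraries. Sirt1, the deacetylase that acts on Aire, had 108, 116, 316 and 317 CPM, a 2.77-fold loss (log2 -1.47, SE 0.06), and this change differed from that of cTEC by -1.56.

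Most other partners of Aire were higher. Of 24 genes of the Aire and Fezf2 list, 19 were higher (79.2%, against 28.9% of all tested genes) and 2 lower (8.33%, against 30.8%). The median log2 change was 0.47 against 0.01 over all genes. With DESeq2's size factors, with DESeq2 and in the fit of all 20 libraries 15 were higher. Hipk2, a kinase of Aire, had 60.8, 69.2, 24.7 and 29.2 CPM (log2 1.29), and Parp1, which binds at DNA breaks, 124, 123, 62.5 and 61.3 CPM (log2 1.02). Top2a (log2 0.99), the co-repressor Trim28 (0.78), the DNA methyltransferase Dnmt3a (0.65) and the remodeller Chd4 (0.58) were higher as well. Top2a is also a gene of dividing cells, and dividing-cell genes were higher as a group.

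**Figure D4:**
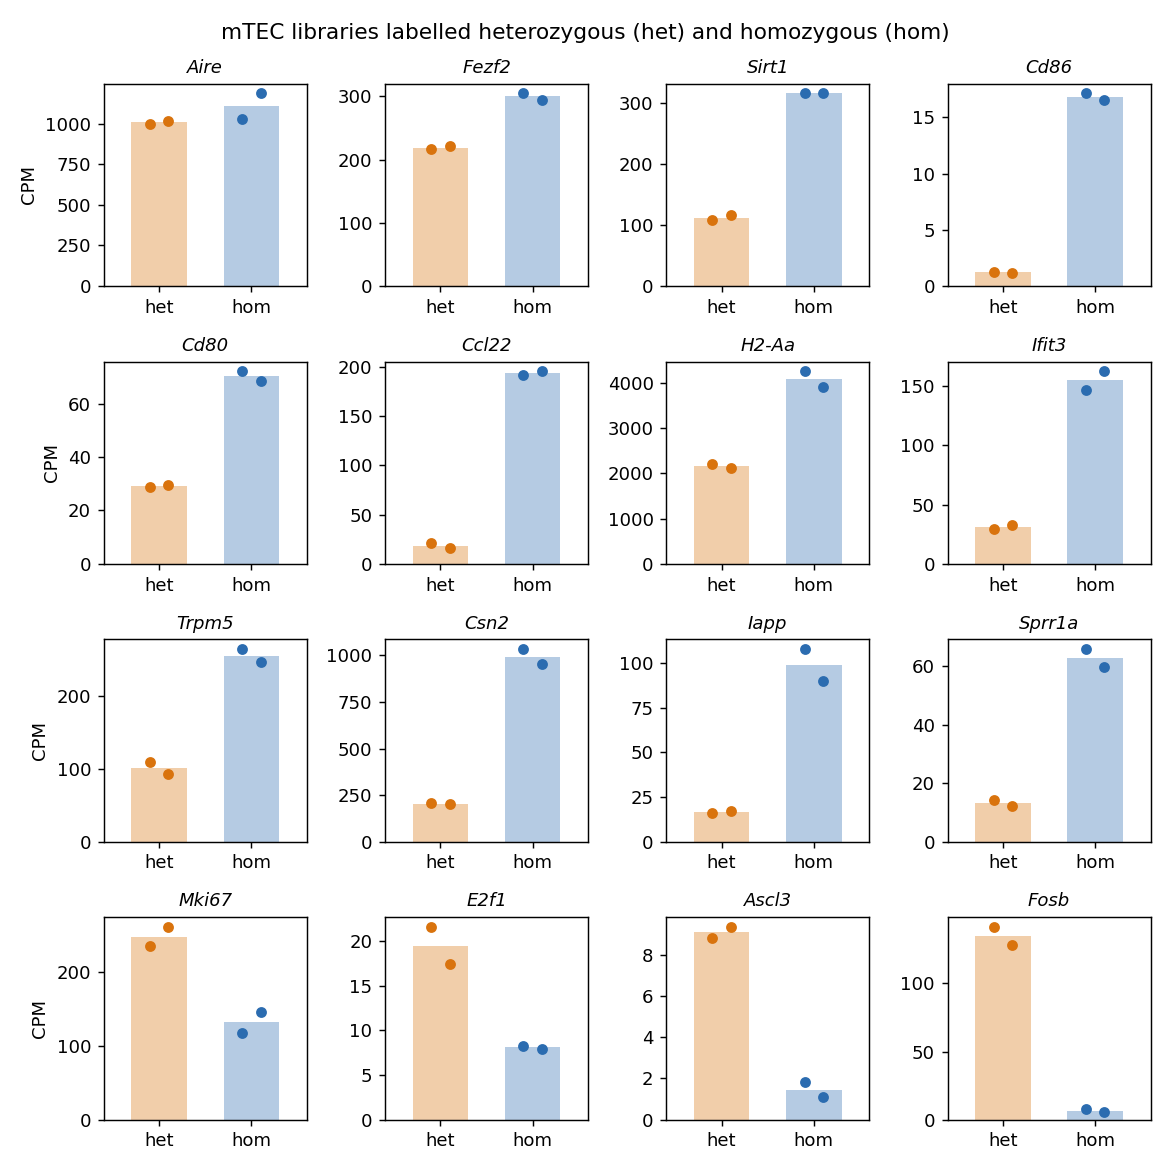
Bars give the mean CPM and points the 2 libraries for 16 genes, orange under the heterozygous and blue under the homozygous label. Aire differs little, Fezf2, Sirt1 and the genes of maturation, antigens and differentiated cells are lower under the heterozygous label, and Mki67, E2f1, Ascl3 and Fosb are higher.

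Genes of mature mTEC were lower. Of 26 genes of maturation and costimulation 16 were lower and 4 higher, with a median log2 change of -0.83. Cd86, a ligand of CD28, had 1.27 and 1.18 CPM under the heterozygous and 17.1 and 16.5 CPM under the homozygous label, a 13.4-fold difference (log2 -3.75, SE 0.20). Its companion Cd80 had 28.8, 29.6, 72.1 and 68.6 CPM (log2 -1.24). Ccl22, a chemokine of mature mTEC, had 20.8, 16.1, 192 and 196 CPM, a 10.3-fold difference (log2 -3.37). In these 3 genes the libraries of a group lay close together and the groups far apart. Cd86 and Ccl22 are also made by dendritic cells, and macrophage and dendritic cell markers were lower as well (12 of 15, median log2 -1.87); their part was not tested. Cd40, which receives the CD40 ligand signal of T cells, was lower by less (log2 -0.57, a call lost in the fit of all 20 libraries), and the surface protein Tspan8 by more (-2.38).

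Members of the same list that mark the whole medullary lineage changed little. Krt5 had 1801, 1868, 1983 and 2269 CPM (log2 -0.19) and Krt14 757, 757, 810 and 870 CPM (log2 -0.13), and neither passed, although Krt5 did with DESeq2's size factors. Ccl21a, the chemokine of the less mature medullary cells, had 1597, 1644, 1827 and 2068 CPM (log2 -0.24) and passed only where the 4 mTEC libraries were fitted alone. Higher were the integrin Itgb4 (log2 0.73), Icosl (0.29) and Ciita (0.27), the master regulator of MHC class II, and Tnfrsf11a, which encodes RANK (0.23). Icosl, Ciita and Tnfrsf11a lost their calls with DESeq2's size factors. The list had 2 higher genes without either heterozygous library, 1 without homozygous library 1 and 1 in the fit of all 20 libraries, where 11 were lower.

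The noncanonical NF-kB pathway, by which RANK and CD40 signals mature mTEC, was nearly level. Relb had 210, 197, 214 and 202 CPM (log2 -0.01), with overlapping groups, and Nfkb2 470, 465, 465 and 463 CPM (log2 0.03), a sign that turned with the scaling. Of 15 genes 0 were higher and 5 lower (33.3%, near the 30.8% of all tested genes), with a median of -0.08. The 5 included Birc2 (log2 -0.35), Traf2 (-0.32) and the kinase Map3k14 (-0.25, a call lost with any one library left out). The count of lower genes was 2 without heterozygous library 1, 3 without homozygous library 1, 2 without homozygous library 2, where 2 were also higher, and 0 in the fit of all 20 libraries.

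Tissue antigens were lower almost without exception. Of 8 tested casein and milk genes 8 were lower, of 17 liver plasma genes 16, of 19 gut and stomach genes 18, of 17 pancreas and peptide hormone genes 17, and of 14 salivary, lacrimal and urinary genes 13, with none higher in these 5 lists. Median log2 changes lay between -2.25 for the liver and -2.88 for the gut and the salivary lists, and of the 75 genes tested 70 were at least 2-fold lower. Of all tested genes 30.8% were lower and 18.5% at least 2-fold lower. A few members were too weakly counted for the filter: 84 genes are listed, 83 are in the table under those symbols, and without a filter 73 were lower and none higher.

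Csn2, beta casein of milk, stood at 207 and 203 CPM under the heterozygous and 1034 and 953 CPM under the homozygous label (log2 -2.25, SE 0.12, adjusted p of 2.24e-08, edgeR). Apoa4, an apolipoprotein of the gut, had 11.96, 14.7, 129 and 111 CPM (log2 -3.15), and the liver apolipoprotein Apoa1 5.23, 4.86, 58.3 and 53.5 CPM (log2 -3.45). Iapp, the islet amyloid hormone, had 16.2, 17.0, 108 and 89.7 CPM (log2 -2.55). In each of them the lowest homozygous library was over 4-fold above the highest heterozygous one. Pomc (log2 -2.96), Sst (-2.25) and the salivary genes Bpifb1 (-2.84) and Spt1 (-2.69) behaved alike. Ins2, the more widely used of the mouse insulin genes, was near the limit of detection at 0.518, 0.0944, 7.87 and 5.18 CPM (log2 -4.36), and without heterozygous library 1 or 2 the log2 change was -6.00 or -3.61.

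Among genes with a mean of at least 2 CPM, the largest fold losses included further hormone, mucin and enzyme genes. Gip, a gut hormone, had 0.0942, 0.189, 9.82 and 8.61 CPM, a 61.5-fold difference (log2 -5.94). Its heterozygous levels were near the limit of detection, so the size of this fold rests on few reads. Fabp9, a fatty acid binding protein of the testis, had 0.659, 0.472, 29.0 and 25.5 CPM (46.8-fold), Muc3, an intestinal mucin, was 33.5-fold lower and Anxa10, an annexin of the stomach, 33.2-fold. Cyp2d12 rests on 3 counts in the heterozygous libraries together and was 56.0 times higher under the homozygous label, with an exact counting interval from 18.8 to 274. The other genes among the 10 largest losses at that level were Timd2, Ccl8, Ccl7, Serpina1b, a protease inhibitor with near-identical copies, and Soat2, at log2 -5.09 to -4.63. Leaving out heterozygous library 1 or 2 moved Timd2 to -6.96 or -4.29 and Ccl8 to -5.97 or -4.27, and leaving out library 2 moved Soat2 to -5.47. Mup1, a urinary protein gene with near-identical copies, had no count under the heterozygous label and was at least 9.82-fold higher under the homozygous one, against a floor of 3 counts over the group.

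Neural and eye genes followed less uniformly. Of 15 tested 11 were lower and 2 higher, with a median log2 change of -0.81. Resp18, a neuroendocrine secretory protein, had 10.2, 10.2, 70.1 and 49.8 CPM (log2 -2.53), Mag of myelin fell by 2.45 and Tph1, which makes serotonin, fell by 2.40. Calb1 (log2 0.46) and the lens protein Cryab (0.30) were the higher ones. Without heterozygous library 1 or homozygous library 1, 1 of the 2 was higher, and in the fit of all 20 libraries 0 were higher and 6 lower.

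mTEC that resemble other cell types differed in both directions by type. The tuft-like list was lower throughout, with 20 of 20 genes lower and a median log2 change of -1.31. Pou2f3, the tuft cell master factor, had 45.1, 34.8, 101 and 87.8 CPM (log2 -1.22), the channel Trpm5 109, 92.7, 264 and 246 CPM (log2 -1.31) and the taste G protein Gnat3 102, 73.6, 327 and 275 CPM (log2 -1.76). For Pou2f3 the change differed from that of cTEC by -1.14 and for Trpm5 by -2.31, both past the interaction test's threshold. The fit of all 20 libraries called 10 of the 20.

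Skin genes were lower to a greater extent. Of 20 genes of keratinocyte differentiation 19 were lower and 0 higher, with a median log2 change of -2.18. Sprr1a of the cornified envelope had 14.2, 12.3, 65.8 and 59.6 CPM (log2 -2.22), Spink5, a protease inhibitor of the epidermis, 10.9, 10.4, 80.0 and 61.8 CPM (log2 -2.71) and the peptidase Klk7 fell by 2.74. In cTEC Sprr1a and Spink5 had log2 changes of 1.07 and 2.87, and the differences between the subsets were -3.29 and -5.58. Among keratins, 14 of 18 were lower and 0 higher. These included Krt23 (log2 -3.08) and the wound keratins Krt6a (-2.95) and Krt16 (-2.35), beside the small or absent changes of Krt5 and Krt14. Without homozygous library 2, 1 keratin was higher, and the fit of all 20 libraries called 8 lower.

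Ciliated, microfold and secretory genes were lower in part. Of 13 ciliated genes 12 were lower and 0 higher: the ciliary master factor Foxj1 had 54.7, 53.4, 101 and 93.5 CPM (log2 -0.82, a call lost with DESeq2 and in the fit of all 20 libraries), and the axonemal Dnah5 fell by 1.71. Of 12 microfold genes 9 were lower and 0 higher, led by the chemokines Ccl6 (log2 -3.48), Ccl20 (-2.83) and Ccl9 (-2.30), while their factor Spib had 603, 570, 591 and 546 CPM with overlapping groups (log2 0.07). Of 14 goblet and lung genes 8 were lower and 1 higher. Muc5ac of the stomach mucus had 7.39, 7.03, 40.3 and 44.2 CPM (log2 -2.53), the surfactant protein Sftpd 3.11, 3.40, 38.3 and 29.1 CPM (log2 -3.35), and Muc5b was the higher one (log2 0.75). Without homozygous library 1 the goblet and lung list had 4 lower genes, Muc5b lost its call with any one library left out, and the fit of all 20 libraries called 6 ciliated, 5 microfold and 4 goblet and lung genes lower.

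Ionocyte genes were higher. Of 9 genes of this chloride-transporting cell type 7 were higher and 2 lower, with a median log2 change of 0.99. Ascl3 had 8.81, 9.34, 1.81 and 1.111 CPM, a 6.30-fold gain (log2 2.66, SE 0.21), and the ionocyte master factor Foxi1 had 30.5, 29.4, 13.3 and 12.1 CPM (log2 1.26). Its relative Foxi2 had 8.19, 8.26, 2.22 and 2.96 CPM (log2 1.69). Groups were well apart in all 3. The chloride channel gene Cftr was lower (log2 -0.50), a call lost in the fit of all 20 libraries. The list had 1 lower gene without heterozygous library 1, heterozygous library 2 or homozygous library 2.

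Of 16 tested muscle genes 8 were higher and 1 lower, among them the calcium channel Ryr1 at 76.1, 95.6, 26.4 and 40.6 CPM (log2 1.38), muscle creatine kinase Ckm (1.25) and skeletal actin Acta1 (1.04). Ckm and Acta1 lost their calls with DESeq2, which called 5 muscle genes higher, and in the fit of all 20 libraries. Myog, the factor of muscle-like mTEC, did not pass, at 172, 163, 161 and 147 CPM (log2 0.14). The lower gene, Chrna1 (log2 -0.44), encodes the acetylcholine receptor subunit; its call was lost with any one library left out. Of 14 tested neuroendocrine genes 4 were higher and 3 lower, with a median log2 change of -0.04, a share of higher genes near the 28.9% of all tested genes. Neurod1 had 19.8, 21.05, 4.86 and 4.40 CPM (log2 2.16), Scg2 and Scg3 rose by 0.84 each, and Chgb (log2 -1.07), Pax6 (-1.35) and the synaptic Syt1 (-0.80) fell. The fit of all 20 libraries called 1 muscle and 1 neuroendocrine gene higher, and Scg2, Scg3 and Syt1 lost their calls.

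Transcription factors of gut and liver split. Of 11 tested 5 were lower (45.5%, against 30.8% of all tested genes) and 2 higher (18.2%, against 28.9%). Hnf4g had 7.39, 7.74, 31.3 and 31.7 CPM (log2 -2.03), Gata4 2.45, 2.60, 18.2 and 17.4 CPM (log2 -2.79), and Hnf4a was lower at a low level (log2 -2.77). Prox1 was higher (log2 0.38), a call lost with DESeq2 and in the fit of all 20 libraries. For Hnf4g the difference from cTEC was -2.82. Without homozygous library 1, 3 genes were lower, and without heterozygous library 1 or homozygous library 2, 1 was higher.

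**Figure D5:**
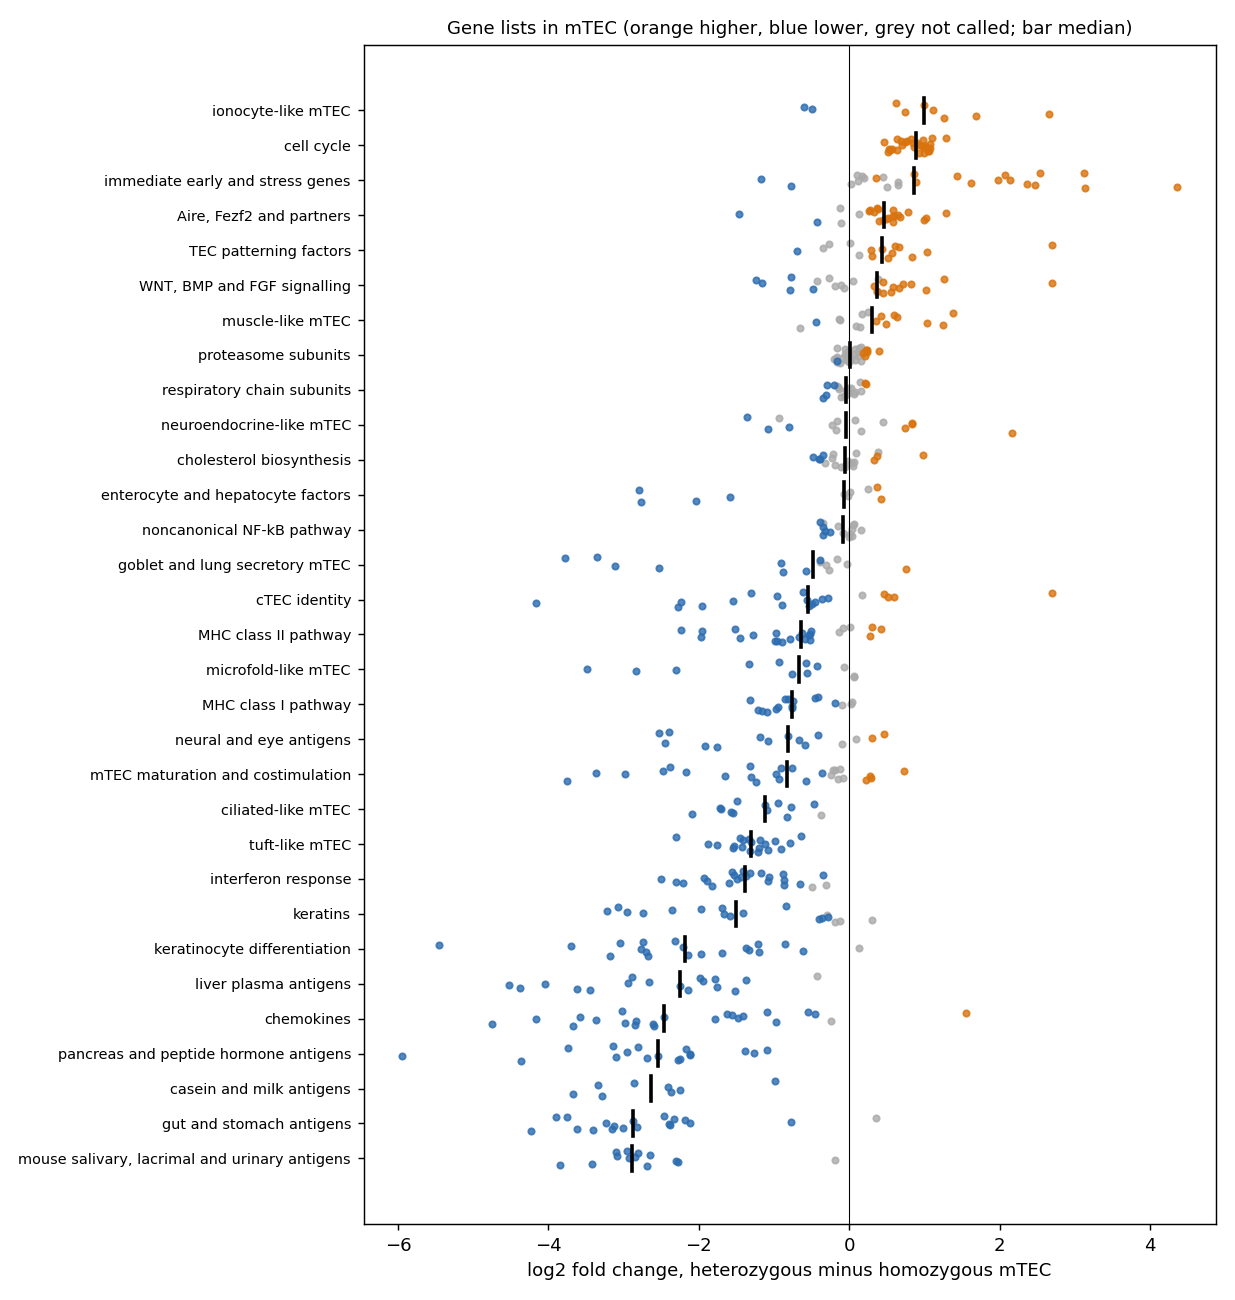
Each point is a gene of a list, placed by its log2 fold change, heterozygous minus homozygous mTEC, and coloured by its call (orange higher, blue lower, grey not called), with a bar at the median of the list; genes without any count under the heterozygous label are left out. Antigen, chemokine, keratinocyte, interferon and tuft lists lie to the left, and ionocyte, cell cycle and immediate early lists to the right.

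Antigen presentation was lower in both classes. Of 24 MHC class II pathway genes 18 were lower and 3 higher, with a median log2 change of -0.64. The class II alpha chain gene H2-Aa had 2197, 2125, 4252 and 3895 CPM (log2 -0.89), its chaperone Cd74 6487, 5958, 10140 and 9882 CPM (log2 -0.66), and H2-Ob, which restrains peptide loading, 8.29, 10.1, 36.2 and 36.9 CPM (log2 -1.96). The higher genes were Ciita, Rfxank (log2 0.31), a subunit of the factor that drives class II promoters, and March8 (0.42), whose product marks class II for degradation. With DESeq2's size factors 1 of these 3 was higher. Class II transcripts are also made by the macrophages and dendritic cells whose markers moved in the same direction.

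Of 17 class I pathway genes 14 were lower and 0 higher, with a median log2 change of -0.76. H2-K1 had 2147, 2141, 4804 and 4483 CPM (log2 -1.09), H2-D1 1556, 1625, 3722 and 3476 CPM (log2 -1.15) and B2m, the light chain, 1790, 1737, 4457 and 3874 CPM (log2 -1.22). These are among the 10 largest losses in CPM, as are Cd74 and H2-Aa, further class II chains (H2-Eb1, H2-Ab1), the mucus protein gene Fcgbp (642, 694, 2800 and 3230 CPM), Srgn, a proteoglycan core (457, 472, 1681 and 1525 CPM), and the mitochondrial mt-Co1 (log2 -0.35). The class I and class II counts were 9 and 15 in the fit of all 20 libraries, Fcgbp lost its call in that fit (adjusted p of 0.0783, edgeR), and mt-Co1 lost its call there and without heterozygous library 1 or homozygous library 2.

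Interferon-stimulated genes were lower as a group. Of 24 genes 22 were lower and 0 higher, with a median log2 change of -1.39. Irf7, the interferon regulatory factor, had 63.2, 59.9, 227 and 215 CPM (log2 -1.82), Ifit3 29.1, 32.8, 147 and 163 CPM (log2 -2.30) and Oasl1 18.2, 19.3, 71.3 and 74.6 CPM (log2 -1.94). Groups did not overlap in any of them, which 2 libraries a side can also show without a call, as for Aire. Against cTEC the differences were -1.39, -1.31 and -1.45, each past the threshold.

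Chemokines were lower as well. Of 23 genes 21 were lower and 1 higher, with a median log2 change of -2.46. Ccl5, which attracts T cells, had 13.8, 13.2, 104 and 93.4 CPM (log2 -2.84) and Ccl20, which attracts CCR6-bearing cells, 12.9, 13.2, 97.6 and 90.5 CPM (log2 -2.83). The single gain, Cxcl14, had 118, 119, 40.1 and 41.7 CPM (log2 1.56), was missed in the fit of all 20 libraries, and was smaller than the cTEC gain of 5.44. Several of these chemokines, such as Ccl6 and Ccl9, are also products of myeloid cells, whose markers moved in the same direction.

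Genes of dividing cells were higher without exception. Of 28 cell cycle genes 28 were higher, with a median log2 change of 0.89. Mki67, the proliferation antigen, had 236, 262, 118 and 147 CPM (log2 0.93, SE 0.14) and the S phase factor E2f1 21.6, 17.4, 8.29 and 7.92 CPM (log2 1.29). The replication helicase subunit Mcm7 rose by 0.91 and Rrm1, which makes deoxynucleotides, by 0.74. Gains were smaller than 2-fold for 21 of the 28. The mTEC change exceeded that of cTEC by 0.93 for Mki67 and 0.88 for E2f1, and the fit of all 20 libraries called 15 of the 28, without Mki67 (adjusted p of 0.0549, edgeR).

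Patterning factors of the thymic primordium were mostly higher. Of 15 genes 10 were higher and 1 lower, with a median log2 change of 0.43. DESeq2's size factors gave 7 higher and 2 lower. Pax9 had 220, 225, 118 and 136 CPM (log2 0.84), Hoxa3 14.2, 14.8, 6.94 and 7.36 CPM (log2 1.04), and Bmp4, an early signal of the thymic bud, 6.59, 7.36, 1.111 and 1.06 CPM (log2 2.70). The lower gene Tbx1 (log2 -0.69) lost its call without heterozygous library 1 or 2 or homozygous library 1 or 2. Of 20 cTEC identity genes 15 were lower (75%, against 30.8% of all tested genes) and 4 higher (20%, against 28.9%). The higher were Bmp4, counted above as well, Pax1 (log2 0.52), Scx (0.46) and Slc46a2 (0.60), a transporter of thymic epithelium. Scx lost its call without homozygous library 1. The fit of all 20 libraries called 6 patterning genes higher and 7 identity genes lower, and Scx and Slc46a2 lost their calls there. Signalling genes of the WNT, BMP and FGF families gave 12 higher (48%, against 28.9% of all tested genes) and 5 lower of 25 (20%, against 30.8%). Examples were Fgfr1 (log2 1.26), Lrp5 (0.58) and Bmp2 (-1.16). DESeq2's size factors gave 10 higher and 8 lower, DESeq2 8 and 7, and the fit of all 20 libraries 5 and 1.

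The largest gains were immediate early and heat shock genes. Fosb had 142 and 128 CPM under the heterozygous and 7.59 and 5.79 CPM under the homozygous label, a 20.5-fold gain (log2 4.36, SE 0.56, adjusted p of 3.09e-05, edgeR). Fos had 427, 348, 52.6 and 36.9 CPM (log2 3.14), Jun 552, 539, 92.8 and 106 CPM (log2 2.48) and Egr1 452, 388, 82.1 and 83.1 CPM (log2 2.37). Of 25 genes of the list 14 were higher and 2 lower, Fosl2 (log2 -0.78) and Dusp2 (-1.17), both lost in the fit of all 20 libraries. They encode transcription factors and phosphatases that cells make within minutes of a stimulus. The same genes were higher under the heterozygous label in cTEC, with log2 changes of 3.31 for Fosb, 2.87 for Fos and 1.77 for Jun, and the interaction test did not pass for any of the 3.

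Hspa1a, an inducible heat shock gene, had 107, 130, 14.5 and 13.2 CPM (log2 3.12), and its near-identical copy Hspa1b 253, 279, 45.8 and 47.1 CPM (log2 2.54), so the division of reads between them is uncertain. Both missed the threshold in the fit of all 20 libraries, where 6 genes of the list were higher; without homozygous library 2 there were 8. The rest of the 10 largest gains were Pth2 (log2 2.88), Bmp4, Dynlt1b (2.66), a dynein light chain with near-identical copies, Ascl3 and Dchs1 (2.42), a protocadherin of planar polarity.

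The largest gains in CPM were Eef1a1 (8769, 8106, 6661 and 6022 CPM) and Eef2, which elongate peptides, Msln, a surface glycoprotein of mesothelium (2779, 2783, 1236 and 1318 CPM), the chaperones Hsp90ab1 and Hspa8, the ubiquitin ligase Nedd4, Hnrnpa1, Rpl4, the actin crosslinker Flna and Jun. Their log2 changes ran from 0.41 (Hspa8) to 2.48 (Jun), and Hspa8 lost its call in the fit of all 20 libraries.

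Housekeeping lists stayed near the median of all genes. Of 31 proteasome subunits 6 were higher and 1 lower, with a median log2 change of 0.01. The regulatory subunit Psmd3 rose by 0.40 and the core subunit Psma4 fell by 0.16, a call that held only with homozygous library 2 left out when each library was dropped in turn. These small differences depended on scaling and on single libraries: 11 were higher without homozygous library 1, 3 without heterozygous library 1, and 8 were lower without homozygous library 2, while DESeq2's size factors gave 1 higher and 10 lower. Of 21 respiratory chain genes 2 were higher and 4 lower, and of 20 cholesterol genes 3 were higher, such as Hsd17b7 (log2 0.98), and 4 lower, such as Sc5d (-0.48). DESeq2's size factors gave 0 higher and 10 lower for the respiratory chain and 1 higher and 7 lower for cholesterol, and the fit of all 20 libraries called 0 respiratory chain genes and 1 cholesterol gene, which was higher. For the respiratory chain, 0 were higher without heterozygous library 1 or homozygous library 2, 1 was lower without heterozygous library 2 or homozygous library 1, and 7 were lower without homozygous library 2. For cholesterol, 1 was higher with any one library left out, and 1 was lower, or 2 where that was homozygous library 2.

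Over all genes, many dose differences in mTEC departed from those in cTEC. The interaction test found the log2 change of mTEC above that of cTEC for 4848 of 19222 genes (25.2%) and below it for 3314 (17.2%). Calls in either direction made up 42.5%, and 4.69% of genes lay at least 2-fold above and 11.7% at least 2-fold below the cTEC change. In cTEC itself 4024 genes (20.9%) were higher and 4201 (21.9%) lower, 42.8% in all, with 8.17% higher and 5.23% lower by at least 2-fold. The adhesion gene Pcdh15 had a log2 change of 1.59 in mTEC and -3.30 in cTEC, and the growth factor homologue Fgf14 -2.30 and -7.59. The share of negative differences among the calls was 40.6%, and 53.6% with DESeq2's size factors, 54.8% with upper quartile factors and 57.01% with raw totals, so the balance of directions in this test depends on the scaling.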

How the data were processed

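Polyadenylated RNA of sorted cells was sequenced, and the authors deposited a table of raw counts per gene symbol; the submitters' processing notes name Trimmomatic 0.32, TopHat2 2.0.10 and featureCounts among their tools and mm10/GRCm38 as the build. Annotation and strandedness were not given in the sources used here, so overlapping and near-identical genes are uncertain. Columns were assigned to genotype and subset by their names. Genes were filtered with edgeR 4.0.16 (filterByExpr, minimum count 10, minimum total 15), scaled by TMM and tested with the quasi-likelihood test in R 4.3.3, with 10 transgenic libraries in 4 groups sharing 1 estimate of the spread and Benjamini-Hochberg adjustment over all tested genes. The difference between subsets was tested as an interaction in the same fit. Log2 changes use a prior count of 0.125, and the threshold was an adjusted p of 0.05. Alternatives were other scalings, filters, DESeq2 1.42.0, limma 3.58.1, other sample sets and each library left out. Intervals and floors on counts cover counting error only.

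The members and gene lists were chosen with earlier results of these data known. Named genes are the reference genes and neighbours of Foxn1, the 10 largest changes each way by fold (mean of at least 2 CPM) and by CPM, up to 3 examples per list and direction, and the 5 largest subset differences each way. Other list members were named for their known roles with values in view. Some lists share genes, so their counts are not separate results. Bmp4 is in the patterning, cTEC identity and signalling lists, and Ccl25 in the reference, cTEC identity and chemokine lists. Promoter windows are from RefSeq. Results for some list members are not reported here.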

Additional observations from a re-analysis of the deposited data

Results flagged for a closer look

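The following results stand here because the dose difference of mTEC departed from that of cTEC in the interaction test. It passed for 4848 genes with the mTEC log2 change above the cTEC change and for 3314 below it. Among the reference genes the difference, mTEC minus cTEC, was 1.02 for Foxn1, 3.41 for Ccl25, 2.95 for Prss16, 1.90 for Cd83, 1.82 for Dll4, 1.72 for Ctsl, 1.32 for Cxcl12 and 1.109 for Psmb11.

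The 5 largest positive differences were those of Ppp1r27 (5.30), Fgf14 (5.29), Pcdh15 (4.89), Fam196b (4.33) and Nsg2 (4.15). Ppp1r27 had 6.97, 7.36, 6.57 and 5.14 CPM in mTEC, without a call, and a log2 change of -4.98 in cTEC. The largest negative differences were those of Timd2 (-8.91), Tnfaip6 (-8.30), Elf5 (-7.36), Bpifb9b (-7.16) and Gdf10 (-6.92). Homozygous cTEC had no count of Timd2, Tnfaip6, Bpifb9b or Gdf10, so the fitted size depends on the prior count. For Elf5 the mTEC change did not pass (log2 -0.24) and the cTEC change was 7.12.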

How the results depend on the processing

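Of 211 named genes 192 were called, and 128 kept call and direction under every setting that tested them. Past a fold of 2, 687 genes were higher and 3561 lower. With DESeq2 3430 genes were higher in mTEC, and with all 20 libraries in the fit 3248 were higher and 3573 lower. For the subset difference the higher genes numbered 3106 without normalization factors, 3177 with DESeq2 and 2345 with all 20 libraries, where 1796 were lower. Leaving out 1 mTEC library gave 4494 to 5142 higher and 4788 to 5334 lower genes in mTEC, and 3829 to 4662 higher and 2889 to 2940 lower for the subset difference. The correlation of deviations between library 1 of the 2 mTEC groups was 0.0582. Being a single contrast of 2 pairs, it cannot show whether the replicate numbers pair the libraries. With the replicate block 5485 genes were higher and 5831 lower.

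Among the named genes, signs turned only for those near 0 or led by 1 library. With 1 library left out, log2 changes ran from -0.12 (without heterozygous library 1) to 2.11 for Cdh5, from -0.23 (likewise) to 2.02 for Col3a1, from -1.34 (likewise) to 0.62 for Pecam1, from -0.0607 to 0.04996 for Relb and from -0.0709 to 0.0688 for Slc46a1. DESeq2 and its size factors gave -0.00432 for Fut1, -0.0937 for Nfkb2, -0.0366 for Pigs and -0.0603 for Spib, upper quartile factors -0.0439 for Nfkb2 and -0.0109 for Spib, and no filter -0.0139 for Nfkb2. The cause was not tested. With 2 libraries a group, and labels that run against the Foxn1 count, directions rest on the labels, and genes under 1 CPM on few reads.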

Other observations

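Gene families grouped by the stem of their symbols, chosen after their values were seen and so given without a test, ranged widely. Of 123 families with at least 15 tested genes, 57 had more lower than higher members and 60 more higher than lower; in 9 more than 0.8 of the members were lower and in 3 more than 0.8 were higher. Many were split, such as Ttc with 14 higher and 14 lower of 39 and Rab with 13 higher and 23 lower of 67. The families named next are from the ends of that range. All 26 tested kallikreins (Klk), secreted serine proteases, were lower in the libraries labelled heterozygous, with a median log2 change of -2.53, as were all 26 Serpinb protease inhibitors (-2.08), all 30 taste receptor genes (Tas, -2.06) and all 15 Ms genes (-2.32). Carboxylesterases were lower in 16 of 17, small proline-rich proteins (Sprr) in 13 of 15, cytochrome P450 genes (Cyp) in 51 of 70 and keratins (Krt) in 36 of 43. Over all tested genes 30.8% were lower. The family counts cover only genes past the filter, which a gene can pass through a single group where it is high. Members weakly counted in every group are thus left out, and families were not counted without the filter.

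At the other end families were mostly higher under TMM, against 28.9% of all tested genes. The Dhx helicases were higher in 14 of 16, nucleoporins (Nup) in 17 of 21, and ribosomal proteins in 36 of 46 for Rpl and 30 of 44 for Rps. Their median log2 changes were 0.45 for Dhx, 0.32 for Nup, 0.39 for Rpl and 0.32 for Rps. Families were not counted under other scalings, and with DESeq2's size factors 70.5% of all higher calls remained. Of 22 Pcdhb protocadherins 18 were higher and 0 lower (median log2 0.84), and of 343 Zfp zinc finger genes 220 were higher and 7 lower (median 0.41). Members of a family share sequence and often a locus, so they are not independent.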
